A study of Mus musculus with 12 samples.

Results

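Tumours of mice given both Complex 1 and radiation, called the combination here, were set against tumours of untreated mice, the control. Bulk RNA sequencing of CT26 tumours gave 3 libraries for the combination and 3 for control, which the sample labels assign, so 6 of the 12 libraries of the series carry this comparison. CT26 cells come from a chemically induced colon tumour of the mouse. The other libraries come from mice given radiation alone (3 libraries) and Complex 1 alone (3 libraries), and they entered the fit so that all 4 groups share 1 estimate of the spread. All tumours carry the same line, labelled WT. The series title describes Complex 1 as a platinum compound that X-rays activate, and it names DNA damage and an abscopal effect, which is a response in tumours that no beam reached. Dose, time, age and sex are not in the labels, nor is it stated if the sequenced tumour was the irradiated one or if each library is a mouse of its own. P-values here therefore measure the spread between these samples, which may be technical.

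Ionising radiation and platinum adducts both damage DNA, and a cell that senses such damage stabilises p53, which switches on genes of cell cycle arrest and death. Nucleic acid that reaches the cytosol can be sensed through cGAS and STING or through RNA receptors, and the interferons made in response induce antiviral genes, antigen presentation and the chemokines that draw T and NK cells. Neutrophils enter tissue along the ligands of the receptor CXCR2, which NF-kB and interleukin 1 induce, and in tumours these cells have been described as both harmful and helpful to the host.

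The 6 libraries held 15.8 to 19.1 M counts each (M, mega counts), with means of 17.1 ± 1.55 M in the combination and 18.4 ± 0.703 M in control (SD, n = 3 each). Levels are FPKM, the authors' counts per kilobase of exons and per mega count. Changes are log2 fold changes ± SE of the combination over control from a quasi-likelihood test in edgeR. Adjusted p-values follow Benjamini and Hochberg across the 13668 genes tested, and a gene is said to rise or fall only where the adjusted p was under 0.05. Control replicate 2 stood apart in 1 respect: it had 0.02 FPKM of Xist, an RNA of the silenced X chromosome, and 28 counts summed over the Y-linked genes Ddx3y, Kdm5d, Eif2s3y and Uty. In the remaining 11 libraries Xist ranged over 9.20 to 14.2 FPKM, with at most 1 count summed over those 4 genes. Of 23 colon epithelium and CT26 genes, 10 passed the filter on low values. Krt20, an intestinal keratin gene, had 96.3, 83.8 and 103 FPKM in combination libraries, against 146, 115 and 148 FPKM in control libraries, and Vim, the mesenchymal filament gene, had 1168, 1244 and 1159 FPKM in combination libraries, against 1072, 1224 and 1412 FPKM in control libraries. The epithelial markers Krt8, Epcam, Cdh17, Vil1 and Cdx2 were below the filter, and the highest of those 5 in any library was Krt8 with 0.67 FPKM. In bulk tissue, a change in the number of cells of a type cannot be told apart from a change in the RNA of each cell.

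In tumours given the combination, 1620 genes rose and 1372 fell, 21.9% of those tested, and 4721 had an unadjusted p under 0.05. The rises were the larger changes: 506 genes rose and 44 fell at least 2-fold. The share of rises depended on the scaling. It was 54.1% of the calls with TMM, and 68.7% (1947 rises, 888 falls) with library totals alone. Genes of p53 arrest and death, interferon response, macrophages, cytotoxic lymphocytes and neutrophils rose, and genes of mitosis, the amino acid stress response and cholesterol synthesis fell. Over all tested genes 11.9% rose and 10% fell, with a median log2 change of -0.01, and each gene list below is read against these shares. Without control replicate 2, 1172 genes rose and 904 fell.

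**Figure D1:**
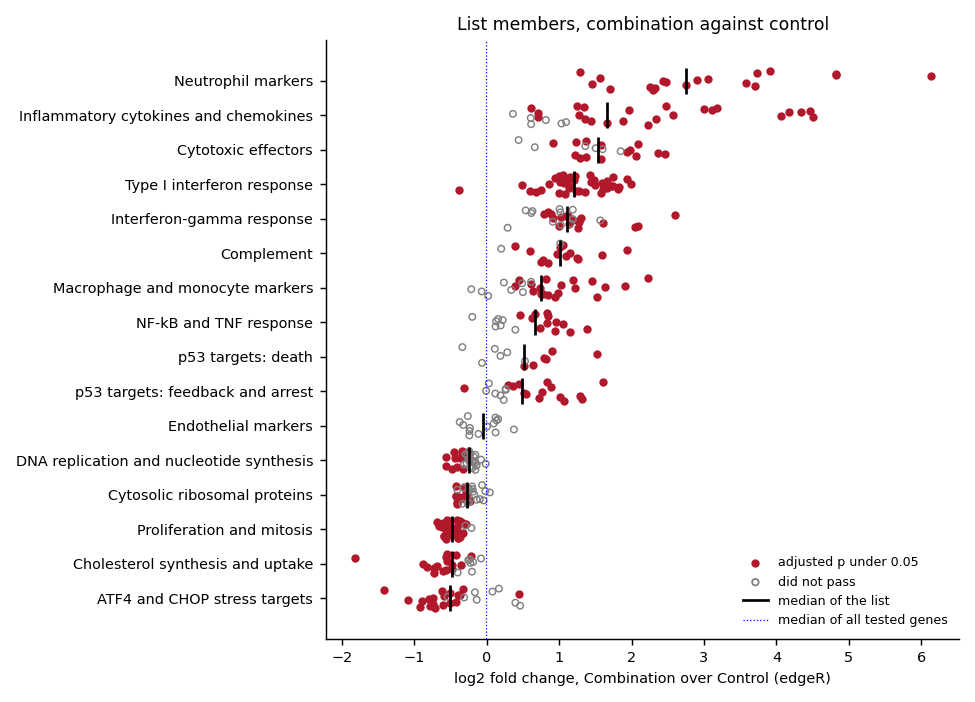
Each point is 1 tested gene of a list, placed by its log2 fold change in the combination over control. Filled points had an edgeR adjusted p under 0.05, bars mark each list's median and the dotted line the median of all tested genes (-0.01). Neutrophil markers lie farthest to the right (median 2.75), and the lists of mitosis, cholesterol synthesis and ATF4 targets lie to the left (medians -0.48, -0.49 and -0.51).

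Genes that p53 induces gave some of the smallest p-values of the comparison. Ccng1 (ENSMUSG00000020326, chromosome 11, 40639379 to 40646138, mm39), the cyclin G1 gene and a direct p53 target, had 74.3, 77.4 and 73.7 FPKM in combination libraries, against 27.4, 30.2 and 30 FPKM in control libraries (log2 1.31 ± 0.08, adjusted p = 1.85e-06). The groups did not overlap, and every combination library had more than 2-fold the level of every control library. Trp53inp1 (ENSMUSG00000028211, chromosome 4, 11156431 to 11174379), whose product is a nuclear cofactor of p53, had 5.39, 4.84 and 5.31 FPKM in combination libraries, against 1.52, 1.71 and 1.69 FPKM in control libraries (log2 1.61 ± 0.10, adjusted p = 1.85e-06). Cdkn1a, the gene of the CDK inhibitor p21, had 85.2, 81.98 and 79.4 FPKM in combination libraries, against 47.3, 40.2 and 31.2 FPKM in control libraries (log2 1.01 ± 0.13, adjusted p = 0.000285). Every combination library lay above every control library for both genes. Mdm2, the ubiquitin ligase that degrades p53, had 45.5, 41.04 and 43.8 FPKM in combination libraries, against 30.5, 29.9 and 28.1 FPKM in control libraries (log2 0.51 ± 0.06, adjusted p = 0.000204). Inka2, which encodes an inhibitor of the kinase PAK4, had 3.68, 4.7 and 4.14 FPKM in combination libraries, against 1.22, 1.09 and 1.18 FPKM in control libraries (log2 1.79 ± 0.14, adjusted p = 2.75e-05).

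Of 24 p53 targets of feedback and arrest, 22 were tested, of which 14 rose and 1 fell, with a median log2 change of 0.48. Among the others that rose were Psrc1 (0.88 ± 0.09), Phlda3, an inhibitor of the kinase AKT (0.76 ± 0.09), Zmat3 (0.83 ± 0.10) and Btg2, an antiproliferative gene (1.07 ± 0.19). The member that fell was Ppm1d, the phosphatase gene WIP1 that turns p53 signalling down (log2 -0.31 ± 0.09, adjusted p = 0.025). Library totals alone gave 17 rises and no fall in this list. No member fell either without the filter on low values, without combination replicate 2 or 3, or without control replicate 1 or 2. Of 13 p53 targets of cell death, 12 were tested, 6 rose and none fell. Fas, the death receptor gene, had 6.06, 5.13 and 4.91 FPKM in combination libraries, against 1.59, 1.78 and 2.05 FPKM in control libraries (log2 1.52 ± 0.25, adjusted p = 0.001). Bax, whose product permeabilises mitochondria, had 96.9, 95.9 and 85.7 FPKM in combination libraries, against 60.3, 54.5 and 57.6 FPKM in control libraries (log2 0.64 ± 0.09, adjusted p = 0.000397). Eda2r, a death receptor gene on the X chromosome, had 6.81, 7.12 and 6.94 FPKM in combination libraries, against 4.24, 3.45 and 4.01 FPKM in control libraries (log2 0.79 ± 0.11, adjusted p = 0.000548). Again no control library reached a combination library in these 3 genes. The BH3-only gene Bbc3 (PUMA) did not pass (log2 -0.07 ± 0.14, adjusted p = 0.783), and Pmaip1 (NOXA) rose (log2 0.91 ± 0.28, adjusted p = 0.0344). In the list of p53 targets in repair and metabolism, 5 of 13 rose, led by Ak1 (0.99 ± 0.12), an adenylate kinase gene, and Ephx1 (0.92 ± 0.09), an epoxide hydrolase gene, while Ddb2 and Xpc, damage recognition genes of nucleotide excision repair, had -0.05 ± 0.11 and 0.12 ± 0.10 and did not pass.

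**Figure D2:**
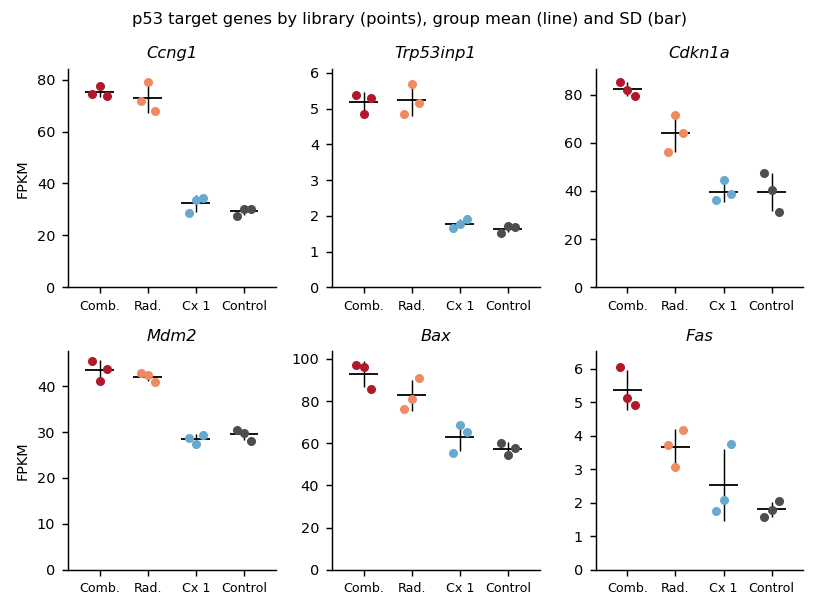
Levels in FPKM of 6 p53 target genes in each library (points) of the combination (Comb.), radiation (Rad.), Complex 1 (Cx 1) and control groups, with the mean (line) and SD (bar) of 3 libraries. In all 6 genes the 3 combination libraries lie above the 3 control libraries, and Ccng1 lies between 73.7 and 77.4 FPKM in the combination, against 27.4 to 30.2 FPKM in control.

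Genes of the type I interferon response rose nearly throughout their list. All 41 were tested, 40 rose and 1 fell, with a median log2 change of 1.20. Mx1, an antiviral GTPase gene, had 23.03, 23.3 and 21.8 FPKM in combination libraries, against 3.82, 6.59 and 6.16 FPKM in control libraries (log2 1.99 ± 0.32, adjusted p = 0.000908). Ifi44l, an interferon-induced gene of antiviral cells, had 28.6, 29.9 and 28.9 FPKM in combination libraries, against 5.47, 8.4 and 10.2 FPKM in control libraries (log2 1.81 ± 0.28, adjusted p = 0.00083). In both genes the lowest combination library was more than 2-fold above the highest control library. Rsad2, which encodes viperin (1.94 ± 0.44), Irf7, the transcription factor that amplifies interferon production (1.74 ± 0.30), Slfn5 (1.74 ± 0.17) and Oas2, a sensor of double-stranded RNA (1.44 ± 0.22), rose as well. The 1 member that fell was Ifi27 (log2 -0.38 ± 0.09, adjusted p = 0.00844). Siglec1 (ENSMUSG00000027322, chromosome 2, 130911140 to 130928685), a sialic acid receptor of macrophages that interferon induces, shared the smallest adjusted p of the comparison with Trp53inp1 and Ccng1. It had 32.2, 29.1 and 35.2 FPKM in combination libraries, against 10.9, 9.04 and 9.15 FPKM in control libraries (log2 1.68 ± 0.10, adjusted p = 1.85e-06).

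The interferon-stimulated response element, to which STAT and IRF factors bind, reads GAAA, any 2 bases, GAAA. It was looked for on both strands in the RefSeq promoters (250 bases before to 50 after the gene start, GRCm38.p6). It was present in 16 of the 30 type I members with a promoter (53.3%), against 3.49% of all 27025 promoters. A match is a description of the letters and shows no binding. Windows from 3 rising members and from Cxcl10 are printed because they hold the motif, in capitals and on either strand. They read 5′ to 3′ along the gene's strand:
Rsad2, chr12:26456528-26456607, minus strand: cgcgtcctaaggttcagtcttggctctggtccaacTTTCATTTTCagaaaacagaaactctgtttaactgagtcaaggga
Isg15, chr4:156200840-156200919, minus strand: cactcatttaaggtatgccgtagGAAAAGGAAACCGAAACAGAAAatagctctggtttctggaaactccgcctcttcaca
Ifit1, chr19:34640769-34640848, plus strand: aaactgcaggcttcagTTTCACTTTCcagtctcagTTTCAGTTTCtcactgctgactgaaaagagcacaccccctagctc
Cxcl10, chr5:92349058-92349137, minus strand: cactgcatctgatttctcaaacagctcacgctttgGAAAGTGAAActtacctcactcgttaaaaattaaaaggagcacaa
In Isg15 the element occurs as 3 overlapping copies, in Ifit1 as 2 copies, and in Rsad2 and Cxcl10 as 1 copy.

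The receptors that sense nucleic acids rose in part. Of 18 genes in this list, 17 were tested, 13 rose and none fell, with a median of 0.90. Sting1, the adaptor downstream of cGAS, had 26.3, 26.6 and 32.4 FPKM in combination libraries, against 17.2, 16.3 and 18.6 FPKM in control libraries (log2 0.66 ± 0.11, adjusted p = 0.000953). Cgas itself, the DNA sensor, had 7.04, 7.82 and 7.45 FPKM in combination libraries, against 6.53, 7.13 and 7.24 FPKM in control libraries and did not pass (log2 0.05 ± 0.10, adjusted p = 0.778), with the groups overlapping. The endosomal RNA receptors Tlr7 and Tlr8 rose, Tlr8 with 6.44, 6.0 and 6.93 FPKM in combination libraries, against 2.45, 2.68 and 3.02 FPKM in control libraries (log2 1.20 ± 0.12, adjusted p = 8.79e-05). Ifih1, which encodes the RNA sensor MDA5, rose by 1.13 ± 0.19, and Zbp1, a sensor of Z-form nucleic acid, by 1.42 ± 0.37. Ifnb1, the interferon beta gene, was below the filter.

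Genes that interferon gamma induces rose too, but the number of calls depended on which libraries were fitted. All 30 were tested and 18 rose, none fell, with a median of 1.11. In 29 of the 30 the groups did not overlap with the combination higher, which held for 23.9% of all genes. The count of rises was 6 without control replicate 1, 10 or 11 without any 1 of the combination libraries or control replicate 2, and 18 without control replicate 3. It was 28 where only the 6 libraries compared were fitted and 29 without the filter on low values. The summed FPKM of the 30 genes was 1910 to 1997 in the combination and 706 to 1111 in control. It was 1272 to 2190 in radiation and 745 to 2104 in Complex 1, whose libraries also enter the shared estimate of the spread. Cxcl10, a chemokine that attracts CXCR3-bearing T and NK cells, had 34.5, 31.5 and 30.8 FPKM in combination libraries, against 6.03, 7.85 and 8.8 FPKM in control libraries (log2 2.05 ± 0.30, adjusted p = 0.000535). Cxcl9, a second ligand of that receptor, had 50.9, 49.3 and 53.4 FPKM in combination libraries, against 23.9, 22.1 and 28.5 FPKM in control libraries (log2 1.00 ± 0.24, adjusted p = 0.011). The groups did not overlap in either gene. Nos2, the inducible nitric oxide synthase gene, had 23.9, 13.8 and 17.6 FPKM in combination libraries, against 2.96, 2.42 and 3.46 FPKM in control libraries (log2 2.60 ± 0.53, adjusted p = 0.00409). Ifng, the gene of the cytokine itself, had 2.1, 3.05 and 3.4 FPKM in combination libraries, against 0.59, 1.78 and 0.83 FPKM in control libraries and did not pass (log2 1.36 ± 0.59, adjusted p = 0.118), though it did without the filter and with only the 6 libraries fitted. Of 23 genes of MHC class I presentation, 6 rose and none fell, with a median of 0.50. They included H2-T23 (0.98 ± 0.22), Nlrc5, the transactivator of class I genes (0.79 ± 0.21), and Tapbp, the tapasin gene (0.86 ± 0.25). The classical heavy chains H2-K1 (0.18 ± 0.17) and H2-D1 (0.25 ± 0.16) and B2m (0.17 ± 0.12) did not pass. The count of class I rises was 1 without control replicate 1 or 2, 3 without combination replicate 1 and 2 without combination replicate 2 or 3. It was 16 where only the 6 libraries compared were fitted, and also 16 without the filter. Of 11 tested class II genes (13 listed), 4 rose and none fell.

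Of 21 immune checkpoint genes, 19 were tested, 9 rose and 1 fell. Cd274, which encodes PD-L1, had 33.7, 28.2 and 33.2 FPKM in combination libraries, against 12.3, 12.6 and 13.7 FPKM in control libraries (log2 1.26 ± 0.37, adjusted p = 0.0269). Its groups did not overlap, yet it no longer passed under 6 of the 17 alternatives, with adjusted p up to 0.0882. Pdcd1, which encodes PD-1, had 8.13, 6.8 and 8.26 FPKM in combination libraries, against 3.84, 4.39 and 3.74 FPKM in control libraries and did not pass (log2 0.91 ± 0.38, adjusted p = 0.111), though it did without the filter and with only the 6 libraries fitted. Entpd1, the ectonucleotidase CD39 (1.22 ± 0.19), Lgals9, the galectin-9 gene (0.77 ± 0.10), and Sirpa, the receptor of the CD47 signal (0.77 ± 0.10), rose. Pvr, a ligand of TIGIT and CD226, fell (log2 -0.42 ± 0.11, adjusted p = 0.0179). No member of this list fell in limma, without combination replicate 2 or 3, or without control replicate 1. Leaving out 1 library gave 6 or 8 rises, and fitting without the filter gave 13.

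Cytotoxic effector genes were high in all 3 combination libraries and uneven in control. Their summed FPKM over 20 genes was 492, 581 and 664 in the combination, against 63.9, 118 and 299 in control libraries 1 to 3, and control replicate 3 was the highest of its group. All 20 were tested, 14 rose and none fell, with a median of 1.54. The count of rises was 9 without control replicate 1 and 9 without control replicate 2. Gzmb, the granzyme B gene, had 82.9, 83.1 and 114 FPKM in combination libraries, against 11.6, 16.2 and 24.97 FPKM in control libraries (log2 2.36 ± 0.39, adjusted p = 0.00109). Gzma, the granzyme A gene, had 52.1, 53.1 and 45.5 FPKM in combination libraries, against 4.29, 6.87 and 15.6 FPKM in control libraries (log2 2.46 ± 0.32, adjusted p = 0.000288). Prf1, the pore-forming perforin gene, had 33.05, 32.4 and 41.98 FPKM in combination libraries, against 4.33, 6.95 and 13.2 FPKM in control libraries (log2 2.09 ± 0.41, adjusted p = 0.00325). The combination libraries were above all control libraries in the 3 genes, including control replicate 3. Gzmf, a granzyme gene of activated lymphocytes in mice, had 69.8, 96.2 and 97.8 FPKM in combination libraries, against 4.69, 16.8 and 63.2 FPKM in control libraries and did not pass (log2 1.60 ± 0.69, adjusted p = 0.115). Without control replicate 3 its log2 change was 2.97 and it passed, as it did without the filter. Gzmd (1.85 ± 0.63) did not pass either but did under 6 of the 17 alternatives, with 3.29 without control replicate 3. Gzme, which shares 42.1% of its 31-base sequences with another gene, passed (log2 1.97 ± 0.61, adjusted p = 0.0339) but did not under 7 alternatives, and was at 3.38 without control replicate 3. Eomes, a transcription factor of cytotoxic lymphocytes, rose (log2 2.06 ± 0.32, adjusted p = 0.000829).

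Of 15 NK cell markers 8 were tested and 5 rose, none fell. Ncr1, the NKp46 receptor gene, had 5.61, 5.32 and 5.61 FPKM in combination libraries, against 1.49, 1.02 and 2.31 FPKM in control libraries (log2 1.74 ± 0.26, adjusted p = 0.000668), and the groups did not overlap. Without control replicate 1 the NK count was 3. Klrk1 (NKG2D) rose by 1.47 ± 0.25 and Klrd1 (CD94) by 1.04 ± 0.27. Of 23 T cell markers 17 were tested, 7 rose and none fell, with a median of 1.12. In all 17 the groups did not overlap with the combination higher, which held for 23.9% of all tested genes. Low members, such as Cd4 below, could pass the filter only through treated libraries, so this separation is partly set by the filter. The count of rises was 3 without control replicate 2, 4 without combination replicate 3 and 15 where only the 6 libraries compared were fitted. Lck, the proximal T cell receptor kinase gene, had 7.46, 6.21 and 7.89 FPKM in combination libraries, against 2.91, 2.66 and 2.8 FPKM in control libraries (log2 1.32 ± 0.24, adjusted p = 0.00229). Cd8a, which marks cytotoxic T cells, had 5.45, 7.35 and 8.63 FPKM in combination libraries, against 3.23, 4.5 and 4.1 FPKM in control libraries and did not pass (log2 0.81 ± 0.51, adjusted p = 0.286), though it did without the filter and with only the 6 libraries fitted. Cd3e had 1.02 ± 0.52 and did not pass. Cd4 rose (log2 1.49 ± 0.40, adjusted p = 0.0167) at low levels, with 1.33, 1.16 and 1.37 FPKM in the combination against 0.70, 0.32 and 0.29 in control. Of 8 regulatory T cell markers 4 were tested, 2 rose and none fell. Foxp3, which marks these cells, was below the filter, while Il2ra (1.88 ± 0.36) and Ctla4 (1.24 ± 0.40) rose. Ctla4 missed the threshold under 6 of the 17 alternatives. The count of rises was 1 without combination replicate 1 or 3 or control replicate 1 or 2. It was 3 in DESeq2, without the filter and with only the 6 libraries fitted. Of 15 B and plasma cell markers 4 were tested and 2 rose, Cd22 and Sdc1, neither of which is confined to B cells.

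**Figure D3:**
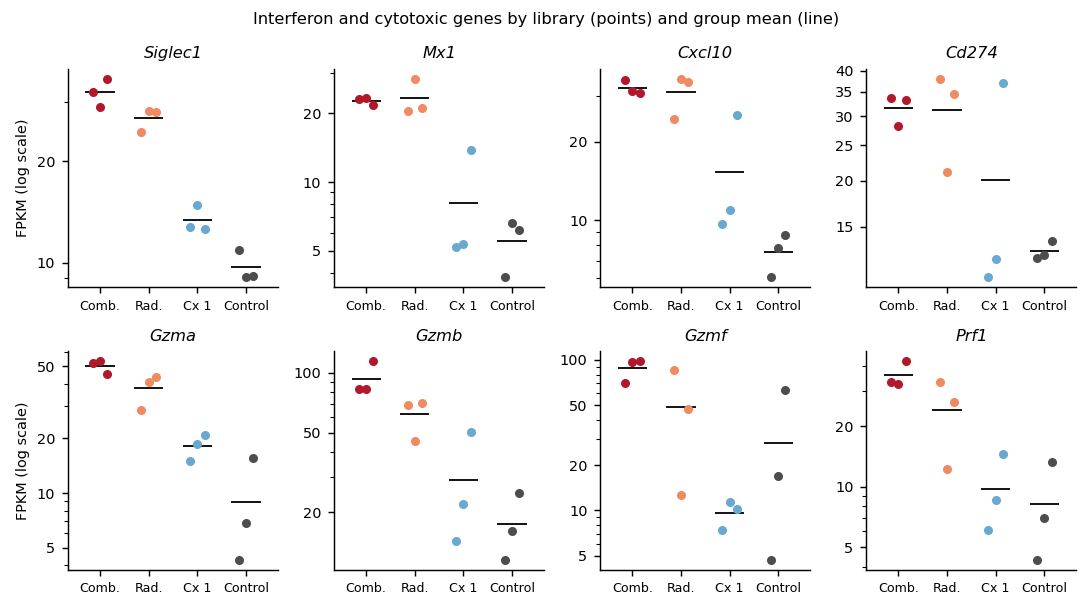
Levels in FPKM (log axis) of 4 interferon-induced genes (upper row) and 4 cytotoxic effector genes (lower row) in each library (points) of the combination (Comb.), radiation (Rad.), Complex 1 (Cx 1) and control groups, with the mean of 3 libraries (line). Combination and control libraries do not overlap in any of the 8 genes, and for Gzmf the lowest combination library (69.8 FPKM) comes close to the highest control library (63.2 FPKM).

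Macrophage genes rose with little dependence on any 1 library. Of 29 markers of macrophages and monocytes, 27 were tested, 19 rose and none fell, with a median of 0.75, and leaving out any of the 6 libraries gave 18 or 19 rises. Their summed FPKM was 2864 to 3094 in the combination, against 1380 to 1643 in control. Adgre1, which encodes F4/80, had 39.3, 38.2 and 32.9 FPKM in combination libraries, against 13.2, 12.3 and 11.5 FPKM in control libraries (log2 1.53 ± 0.14, adjusted p = 4.37e-05). Lyz2, the myeloid lysozyme gene, of whose 31-base sequences 32.8% occur in another gene, had 1292, 1164 and 1183 FPKM in combination libraries, against 630, 615 and 485 FPKM in control libraries (log2 1.03 ± 0.10, adjusted p = 6.17e-05). C1qa, a subunit of the complement component C1q, had 359, 380 and 334 FPKM in combination libraries, against 201, 190 and 185 FPKM in control libraries (log2 0.85 ± 0.09, adjusted p = 8.79e-05). No control library reached a combination library in the 3 genes. Ncf1 (ENSMUSG00000015950, chromosome 5, 134248907 to 134258479), a subunit of the phagocyte NADPH oxidase, had 16.7, 15.5 and 16.4 FPKM in combination libraries, against 7.46, 8.27 and 7.88 FPKM in control libraries (log2 0.99 ± 0.08, adjusted p = 2.75e-05). Mrc1 (0.24 ± 0.31) and Cd163 (-0.07 ± 0.58), markers of alternatively activated macrophages, and Arg1 (0.02 ± 0.35), the arginase gene, did not pass. Complement genes rose in 14 of 16 cases, with a median of 1.01. C3, the central component, had 88.9, 78.5 and 95.9 FPKM in combination libraries, against 29.7, 28.1 and 26.6 FPKM in control libraries (log2 1.59 ± 0.15, adjusted p = 6.17e-05).

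A group of genes seen in lipid-laden macrophages did not move as 1 block. Of 15 listed, 14 were tested, 4 rose and 3 fell, with a median of 0.04, which was -0.02 without combination replicate 1. Trem2, the lipid receptor gene, had 7.45, 7.95 and 7.16 FPKM in combination libraries, against 3.83, 4.38 and 4.11 FPKM in control libraries (log2 0.82 ± 0.14, adjusted p = 0.0012), and Apoe, the apolipoprotein E gene, had 331, 308 and 348 FPKM in combination libraries, against 211, 157 and 129 FPKM in control libraries (log2 0.94 ± 0.17, adjusted p = 0.00184). Gpnmb, a glycoprotein gene of macrophages and tumour cells, ran the other way, with 7.8, 6.51 and 8.9 FPKM in combination libraries, against 14.99, 19.1 and 12.5 FPKM in control libraries (log2 -1.06 ± 0.18, adjusted p = 0.00124), and Spp1, the osteopontin gene, fell (log2 -0.75 ± 0.19, adjusted p = 0.0117). Without combination replicate 2 or control replicate 1 the count of falls was 1. Of 18 dendritic cell markers 8 were tested and 5 rose. The count was 3 without combination replicate 1 or control replicate 2. The costimulatory genes Cd80 (0.72 ± 0.11) and Cd86 (0.68 ± 0.13) were among them, while the defining markers Xcr1, Clec9a, Flt3 and Siglech stayed below the filter.

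Neutrophil genes showed the largest differences. Of 27 markers 19 were tested and all 19 rose, with a median log2 change of 2.75, and no other list with more than 5 tested members had a higher median. The filter on low values asked for 1 FPKM in any 3 libraries, so low genes could enter through treated libraries where they were high. The count and the median of the tested markers are therefore partly set by that filter. Their summed FPKM was 631, 436 and 390 in combination libraries 1 to 3, against 56.9, 40.02 and 39.7 in control libraries. S100a9, a subunit of the calprotectin complex of neutrophils, had 291, 194 and 181 FPKM in combination libraries, against 12.02, 6.11 and 4.65 FPKM in control libraries (log2 4.82 ± 0.51, adjusted p = 9.79e-05). S100a8, its partner, had 87.2, 52.3 and 43.3 FPKM in combination libraries, against 2.12, 1.66 and 2.44 FPKM in control libraries (log2 4.83 ± 0.51, adjusted p = 9.58e-05). The lowest combination library was above the highest control library in both. Csf3r, the receptor of granulocyte colony-stimulating factor, had 18.3, 13.3 and 14.1 FPKM in combination libraries, against 3.69, 2.52 and 3.07 FPKM in control libraries (log2 2.25 ± 0.19, adjusted p = 2.75e-05). Cxcr2, the receptor that guides neutrophils into tissue, had 4.78, 2.9 and 2.0 FPKM in combination libraries, against 0.32, 0.29 and 0.09 FPKM in control libraries (log2 3.70 ± 0.39, adjusted p = 9.79e-05). With control levels this low, its fold is uncertain: it ranged from 1.73 to 3.98 on the log2 scale under the 17 alternatives, all of which it passed. Lcn2, the lipocalin gene of neutrophils and inflamed epithelium (2.91 ± 0.38), Mmp8, a neutrophil collagenase gene (3.06 ± 0.38), and Fpr1, a formyl peptide receptor gene (2.75 ± 0.30), rose. Retnlg had 65, 46 and 48 counts in the combination against 1, 0 and 1 counts in control, so that its fold depends on a few reads. The granule genes of immature neutrophils Elane, Mpo, Camp, Ltf and Ngp were below the filter, and the highest of these 5 in any library was Camp with 0.36 FPKM.

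The ligands of CXCR2 rose with their receptor. Cxcl1, a ligand made by many cell types, had 246, 81.02 and 104 FPKM in combination libraries, against 12.6, 6.11 and 6.29 FPKM in control libraries (log2 4.06 ± 0.53, adjusted p = 0.000288). Cxcl2, made mainly by myeloid cells, had 33.1, 22.1 and 17.1 FPKM in combination libraries, against 1.42, 1.21 and 0.79 FPKM in control libraries (log2 4.34 ± 0.47, adjusted p = 0.000111). Cxcl5, a ligand of epithelial and stromal origin in mice, had 41.9, 13.9 and 14.5 FPKM in combination libraries, against 1.08, 1.01 and 0.97 FPKM in control libraries (log2 4.46 ± 0.55, adjusted p = 0.000204). Combination replicate 1 was the highest library in all 3, and the other 2 combination libraries were still above every control library. Cxcl3 had 9.22, 3.47 and 3.05 FPKM in combination libraries, against 0.27, 0.28 and 0.29 FPKM in control libraries (log2 4.17 ± 0.58, adjusted p = 0.000405). From these low control levels its log2 change ranged from 2.15 to 4.45 under the 17 alternatives, all of which it passed. Il1b, the interleukin 1 beta gene, had 74.1, 53.9 and 43.1 FPKM in combination libraries, against 12.3, 3.92 and 4.35 FPKM in control libraries (log2 3.01 ± 0.39, adjusted p = 0.000256), and Il6 rose by 3.17 ± 0.57. Osm, the oncostatin M gene of myeloid cells, had 8.69, 4.71 and 6.77 FPKM in combination libraries, against 1.27, 1.11 and 1.12 FPKM in control libraries (log2 2.48 ± 0.25, adjusted p = 8.79e-05). Saa3, an acute phase gene, had 30.8, 9.13 and 10.6 FPKM in combination libraries, against 1.19, 0.52 and 0.61 FPKM in control libraries (log2 4.39 ± 0.63, adjusted p = 0.000476). Of 35 cytokine and chemokine genes 29 were tested, 23 rose and none fell, with a median of 1.66. Ccl2, the chemokine that recruits monocytes, had 185, 177 and 157 FPKM in combination libraries, against 46.9, 45.8 and 66.1 FPKM in control libraries (log2 1.66 ± 0.17, adjusted p = 9.58e-05).

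The promoters of Cxcl1, Cxcl2 and Cxcl3 are printed because these ligands rose together and each holds a kappa B site, the letters that NF-kB binds, in capitals (RefSeq, GRCm38.p6, plus strand, 5′ to 3′):
Cxcl1, chr5:90891140-90891219, plus strand: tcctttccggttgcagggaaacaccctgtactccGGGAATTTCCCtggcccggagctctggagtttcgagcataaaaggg
Cxcl2, chr5:90903768-90903847, plus strand: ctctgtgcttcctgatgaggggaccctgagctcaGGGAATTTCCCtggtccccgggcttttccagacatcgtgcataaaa
Cxcl3, chr5:90785994-90786073, plus strand: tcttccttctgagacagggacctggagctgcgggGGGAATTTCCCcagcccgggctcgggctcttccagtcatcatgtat
The same letters, GGGAATTTCCC, stand in all 3, and since they are nearly the same on both strands the search found the site on each strand, overlapping. A kappa B site was present in 7 of the 21 cytokine genes with a promoter (33.3%) and in 10 of the 15 NF-kB response genes with a promoter (66.7%), against 8.18% of all promoters. In neutrophil markers it was in 1 of 17. Of the 19 NF-kB and TNF response genes, all tested, 12 rose and none fell, with a median of 0.67. Nfkbia, the inhibitor that NF-kB induces as feedback, rose by 1.05 ± 0.18, and Icam1, the adhesion molecule for leukocytes, had 6.62, 6.16 and 6.31 FPKM in combination libraries, against 2.34, 2.38 and 2.38 FPKM in control libraries (log2 1.38 ± 0.19, adjusted p = 0.000356). Il18, the interleukin 18 gene (1.97 ± 0.27), and Gsdmd, the pore gene of pyroptosis (0.60 ± 0.11), were among 10 of 15 tested pyroptosis and necroptosis genes that rose.

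**Figure D4:**
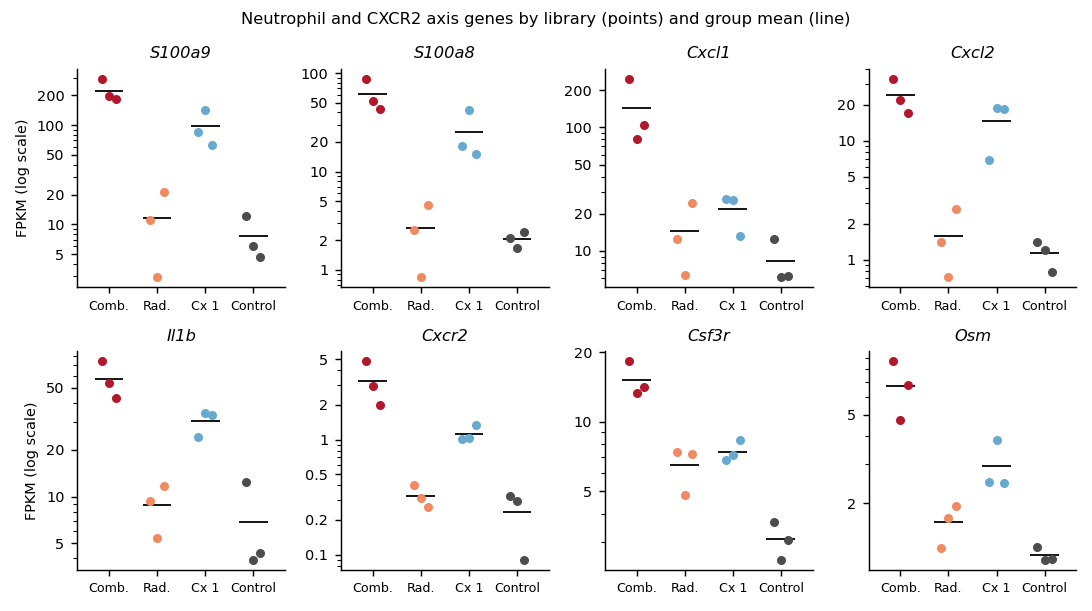
Levels in FPKM (log axis) of 8 genes of neutrophils, CXCR2 ligands and myeloid cytokines in each library (points) of the combination (Comb.), radiation (Rad.), Complex 1 (Cx 1) and control groups, with the mean of 3 libraries (line). In all 8 genes every combination library lies above every radiation and every control library, and S100a9 lies between 181 and 291 FPKM in the combination, against 4.65 to 12 FPKM in control.

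Neutrophil and cytokine genes were among the few that differed between the combination and radiation alone. Against radiation 84 genes were higher in the combination (0.615% of those tested) and 5 were lower (0.0366%), and 1411 had an unadjusted p under 0.05. Of the 19 tested neutrophil markers, 13 were among the 84. S100a9 had 291, 194 and 181 FPKM in the combination, against 11.1, 2.93 and 21.1 FPKM in radiation (log2 4.23 ± 0.49, adjusted p = 0.00339). Cxcl1 had 246, 81.02 and 104 FPKM in the combination, against 12.5, 6.42 and 24.4 FPKM in radiation (log2 3.30 ± 0.51, adjusted p = 0.00976). Il1b had 74.1, 53.9 and 43.1 FPKM in the combination, against 9.33, 5.4 and 11.7 FPKM in radiation (log2 2.68 ± 0.38, adjusted p = 0.00624). The groups were separate in the 3 genes. Of 29 cytokine genes 10 were higher than in radiation. Leaving out 1 library at a time gave 7 to 12 neutrophil markers and 3 to 10 cytokine genes, the lowest counts being those without radiation replicate 1. In the same fit none of the 41 type I interferon genes, the 33 mitosis genes or the p53 target lists passed against radiation, for example Ccng1 (log2 0.02 ± 0.08, adjusted p = 0.943), Mx1 (log2 -0.06 ± 0.29, adjusted p = 0.965) and Mki67 (log2 -0.27 ± 0.09, adjusted p = 0.335). At an unadjusted p under 0.05, 12 of the 33 mitosis genes were lower, 1 type I gene was higher and 1 lower, and 4 of the 22 feedback and arrest genes were higher and 1 lower. Without the filter on low values 3 feedback and arrest genes and 2 type I genes were higher and 2 mitosis genes lower. DESeq2 called 1 of these 22 higher and none of the mitosis or type I genes. The intervals of these differences are set by their SE, and a missed threshold does not show equality.

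Against Complex 1 alone 647 genes were higher (4.73%) and 717 lower (5.25%), and 3496 of the 13668 tested had an unadjusted p under 0.05. Here 4 of the 19 neutrophil markers were higher, and 10 were at an unadjusted p under 0.05. Leaving out 1 library gave 1 to 7, the fewest without combination replicate 1, and fitting without the filter gave 13. S100a9 had 291, 194 and 181 FPKM in the combination, against 85.2, 142 and 62.3 FPKM in Complex 1 (log2 1.19 ± 0.41, adjusted p = 0.0819), and it did not pass although the groups did not overlap. Cxcl2 had 33.1, 22.1 and 17.1 FPKM in the combination, against 6.85, 19.03 and 18.6 FPKM in Complex 1 (log2 0.69 ± 0.37, adjusted p = 0.27), with overlapping groups, and did not pass. Cxcl1 passed, with 26.3, 25.8 and 13.3 FPKM in Complex 1 (log2 2.70 ± 0.49, adjusted p = 0.0055). Of 41 type I interferon genes 32 were higher than in Complex 1. Leaving out 1 library gave 9 to 40, the fewest without Complex 1 replicate 2. The summed FPKM of these genes was 845, 898 and 1785 in Complex 1 libraries 1 to 3, against 2186 to 2342 in the combination. Of 22 tested p53 feedback genes 15 were higher and none lower, and of 33 mitosis genes 30 were lower and none higher. Ccng1 had 74.3, 77.4 and 73.7 FPKM in the combination, against 28.8, 33.7 and 34.6 FPKM in Complex 1 (log2 1.20 ± 0.08, adjusted p = 8.68e-06). These direct comparisons share the combination libraries with the comparison against control.

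Genes of mitosis fell together and by small amounts. Of 33 genes, all tested, 31 fell and none rose, with a median log2 change of -0.48, and the 2 that did not pass were Kif20a and Mybl2. Mki67, the proliferation marker gene, had 38.96, 43.8 and 46.3 FPKM in combination libraries, against 62.7, 66.99 and 68.03 FPKM in control libraries (log2 -0.66 ± 0.09, adjusted p = 0.000426). Prc1 (ENSMUSG00000038943, chromosome 7, 79944198 to 79966007), a gene of the central spindle, had 13.4, 14.6 and 14.1 FPKM in combination libraries, against 21.1, 21.7 and 22.8 FPKM in control libraries (log2 -0.69 ± 0.07, adjusted p = 9.79e-05). Spag5 (ENSMUSG00000002055, chromosome 11, 78192355 to 78213283), a spindle gene, had 9.06, 9.93 and 8.52 FPKM in combination libraries, against 15.9, 14.4 and 14.4 FPKM in control libraries (log2 -0.75 ± 0.08, adjusted p = 9.79e-05). Every combination library was below every control library in the 3 genes. E2f7 (ENSMUSG00000020185, chromosome 10, 110581300 to 110623245), a repressor of E2F targets, had 4.57, 5.37 and 5.2 FPKM in combination libraries, against 7.95, 8.4 and 8.02 FPKM in control libraries (log2 -0.73 ± 0.07, adjusted p = 7.43e-05). Tpx2 (-0.51 ± 0.07), Anln (-0.57 ± 0.07) and Kif23 (-0.62 ± 0.07), genes of the spindle and cytokinesis, fell likewise.

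The cell cycle homology region, TTTGAA, which the DREAM and MuvB complexes use at genes of mitosis, was in 19 of the 27 mitosis genes with a promoter (70.4%), against 18.1% of all promoters. The CCAAT box was in 20 of the 27 (74.1%), against 37.9%. Windows of members that fell are printed with TTTGAA, on either strand, in capitals (RefSeq, GRCm38.p6, 5′ to 3′ along the gene):
Mki67, chr7:135716435-135716514, minus strand: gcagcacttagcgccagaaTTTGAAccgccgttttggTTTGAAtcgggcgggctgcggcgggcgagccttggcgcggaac
Cdk1, chr10:69352913-69352992, minus strand: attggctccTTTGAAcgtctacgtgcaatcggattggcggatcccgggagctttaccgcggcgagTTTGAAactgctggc
Cdc20, chr4:118437344-118437423, minus strand: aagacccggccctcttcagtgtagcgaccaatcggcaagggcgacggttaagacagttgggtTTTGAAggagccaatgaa
Top2a, chr11:99024190-99024269, minus strand: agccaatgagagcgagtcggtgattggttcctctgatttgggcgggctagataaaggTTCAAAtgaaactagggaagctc
Cdk1, the kinase gene of mitotic entry, fell by 0.40 on the log2 scale, with 18.8, 20.96 and 17.2 FPKM in combination libraries, against 22.97, 24.9 and 25.04 FPKM in control libraries (log2 -0.40 ± 0.08, adjusted p = 0.00358). Cdc20, an activator of the anaphase-promoting complex, had 54.7, 63.2 and 51.01 FPKM in combination libraries, against 63.9, 66.02 and 75.7 FPKM in control libraries (log2 -0.33 ± 0.09, adjusted p = 0.0241), and Top2a, the topoisomerase gene, had 38.5, 42.3 and 40.8 FPKM in combination libraries, against 47.4, 49.2 and 55.8 FPKM in control libraries (log2 -0.37 ± 0.07, adjusted p = 0.00332).

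Genes of DNA replication fell in fewer cases. Of 33, all tested, 13 fell and none rose, with a median of -0.25, and the count was 8 without combination replicate 1, combination replicate 3 or control replicate 3. Pcna, the sliding clamp gene, had 99.3, 109 and 98.9 FPKM in combination libraries, against 126, 139 and 136 FPKM in control libraries (log2 -0.43 ± 0.07, adjusted p = 0.00083). Rrm2, the ribonucleotide reductase subunit gene, had 43.3, 49.2 and 42.1 FPKM in combination libraries, against 55.3, 62.2 and 60.7 FPKM in control libraries (log2 -0.45 ± 0.08, adjusted p = 0.00179). Pola1, the polymerase alpha gene, had 7.96, 8.32 and 7.44 FPKM in combination libraries, against 11.4, 11.3 and 11.3 FPKM in control libraries (log2 -0.57 ± 0.07, adjusted p = 0.000285). All control libraries were above all combination libraries in these genes. Of 14 tested histone and histone chaperone genes (22 listed), 8 fell, among them H2az1 (-0.46 ± 0.10), a variant histone gene, and H1f0, a linker histone gene (-0.54 ± 0.10).

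Repair genes fell or did not pass, with few rises. In the list of double-strand break signalling and repair, 9 of 27 fell and none rose, including Brca1 (-0.40 ± 0.09), a gene of homologous recombination, Mre11a, a nuclease gene of the MRN complex (-0.34 ± 0.07), and H2ax, the histone that is phosphorylated at breaks (-0.46 ± 0.11). Atm, the kinase gene of break signalling, did not pass (log2 0.10 ± 0.09, adjusted p = 0.477). In the Fanconi and crosslink list 23 of 24 were tested, 9 fell and 1 rose. Ercc1, whose product forms the XPF nuclease that cuts beside crosslinks, had 46.8, 46.2 and 45.1 FPKM in combination libraries, against 92.4, 66.05 and 68.05 FPKM in control libraries (log2 -0.76 ± 0.12, adjusted p = 0.00109), and the groups did not overlap. On the genome Ercc1 overlaps another tested gene, Cd3eap, whose reads may not be told apart. Brca2 had 3.95, 4.23 and 3.82 FPKM in combination libraries, against 5.11, 5.53 and 6.07 FPKM in control libraries (log2 -0.53 ± 0.09, adjusted p = 0.00192), and Fanca was the member that rose (log2 0.30 ± 0.10, adjusted p = 0.0415). No member of this list rose without control replicate 1 or 2 or without any 1 of the combination libraries, nor without the filter, with the filter on counts or with only the 6 libraries fitted. Of 24 genes of nucleotide excision repair, which removes platinum adducts, 3 fell and 1 rose, a share below the 21.9% of all genes, and 1 fell without combination replicate 3. The member that rose was Ercc5, the nuclease XPG gene and also a p53 target, with 9.78, 10.5 and 11.8 FPKM in combination libraries, against 6.85, 7.71 and 6.85 FPKM in control libraries (log2 0.54 ± 0.08, adjusted p = 0.00074).

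Targets of ATF4 and CHOP, transcription factors of the amino acid and ER stress response, fell. Of 28 genes 27 were tested, 18 fell and 1 rose, with a median of -0.51. Ddit3, the CHOP gene, had 23.2, 22.4 and 24.8 FPKM in combination libraries, against 54.9, 51.3 and 38.1 FPKM in control libraries (log2 -1.08 ± 0.14, adjusted p = 0.000257). Trib3, a pseudokinase gene that CHOP induces, had 10.8, 10.97 and 9.73 FPKM in combination libraries, against 34.1, 27.6 and 19.3 FPKM in control libraries (log2 -1.41 ± 0.18, adjusted p = 0.000264). Psat1, a gene of serine synthesis, had 44.7, 48.7 and 41.9 FPKM in combination libraries, against 64.05, 62.7 and 70.9 FPKM in control libraries (log2 -0.59 ± 0.09, adjusted p = 0.00064). No control library overlapped with the combination in the 3 genes, although control replicate 3 was the lowest of its group in Ddit3 and Trib3. Atf4 itself fell (log2 -0.61 ± 0.12, adjusted p = 0.00281). The rise was that of Sesn2, which is also on the p53 list (log2 0.45 ± 0.11, adjusted p = 0.0103). The amino acid response element TGATGNAA, which ATF4 and its partners bind, was in 6 of the 21 members with a promoter (28.6%), against 4.06% of all promoters. Windows of 3 members that fell hold it in capitals, on either strand (RefSeq, GRCm38.p6, 5′ to 3′ along the gene):
Chac1, chr2:119351013-119351092, plus strand: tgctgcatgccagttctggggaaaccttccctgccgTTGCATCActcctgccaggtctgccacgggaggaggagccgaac
Asns, chr6:7693210-7693289, minus strand: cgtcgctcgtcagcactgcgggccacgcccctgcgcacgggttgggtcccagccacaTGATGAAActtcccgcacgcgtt
Nupr1, chr7:126625537-126625616, minus strand: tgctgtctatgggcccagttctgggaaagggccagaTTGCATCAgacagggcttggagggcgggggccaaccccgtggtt
Chac1, a glutathione-degrading enzyme gene, had 8.37, 7.89 and 7.0 FPKM in combination libraries, against 15.3, 15.4 and 11.2 FPKM in control libraries (log2 -0.90 ± 0.23, adjusted p = 0.0141). Asns, the asparagine synthetase gene, had 64.1, 59.5 and 52.7 FPKM in combination libraries, against 111, 92.2 and 90.1 FPKM in control libraries (log2 -0.78 ± 0.13, adjusted p = 0.00119). Nupr1, a stress-induced nuclear protein gene, had 21.6, 15.9 and 19.8 FPKM in combination libraries, against 36.4, 34.4 and 22.03 FPKM in control libraries (log2 -0.74 ± 0.20, adjusted p = 0.0163).

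Chaperones of the endoplasmic reticulum fell in part: 26 of 27 genes were tested, 11 fell and none rose, with a median of -0.23. Hspa5, the BiP gene, had 210, 194 and 197 FPKM in combination libraries, against 316, 319 and 238 FPKM in control libraries (log2 -0.59 ± 0.10, adjusted p = 0.00132). Herpud1, a gene of ER-associated degradation, had 33.7, 33.8 and 32.8 FPKM in combination libraries, against 51.7, 53.2 and 46.6 FPKM in control libraries (log2 -0.64 ± 0.10, adjusted p = 0.000646), and Ern1, the stress sensor IRE1 alpha, fell by 0.87 on the log2 scale. The combination libraries were lower than all control libraries in Hspa5 and Herpud1. The ER stress response element (CCAAT and CCACG with 9 bases between), which ATF6 binds with NF-Y, was in 9 of 22 of these genes with a promoter (40.9%), against 0.13% of all promoters. Calr, the calreticulin gene, whose protein on the surface of dying cells is read as a sign of immunogenic death, had 229, 226 and 240 FPKM in combination libraries, against 246, 280 and 216 FPKM in control libraries and did not pass (log2 -0.14 ± 0.10, adjusted p = 0.353), with -0.04 without control replicate 2 and -0.24 without control replicate 3. Hmgb1, another released danger signal, did not pass either (log2 -0.25 ± 0.16, adjusted p = 0.306), except without the filter. Its change was -0.15 without combination replicate 1, -0.40 without combination replicate 3 and -0.08 without control replicate 3. Of 20 cytosolic heat shock genes 4 fell, a count that was 1 without control replicate 2, 2 without combination replicate 1 or 2, and 7 without combination replicate 3.

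Cholesterol genes fell as a group. Of 25 genes 23 were tested, 16 fell and none rose, with a median of -0.49. Without combination replicate 1, 8 fell. Srebf2, the transcription factor that switches on the pathway, had 35.1, 34.8 and 37.1 FPKM in combination libraries, against 45.7, 43.9 and 49.6 FPKM in control libraries (log2 -0.43 ± 0.07, adjusted p = 0.0013). Msmo1, a methylsterol oxidase gene, had 12.4, 13.5 and 14.2 FPKM in combination libraries, against 22.9, 24.9 and 23.4 FPKM in control libraries (log2 -0.88 ± 0.16, adjusted p = 0.00224). Soat2, which esterifies cholesterol, had 10.3, 6.43 and 6.11 FPKM in combination libraries, against 36.2, 21.8 and 20.3 FPKM in control libraries (log2 -1.82 ± 0.28, adjusted p = 0.000706). The groups were apart in all 3, most in Soat2.

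**Figure D5:**
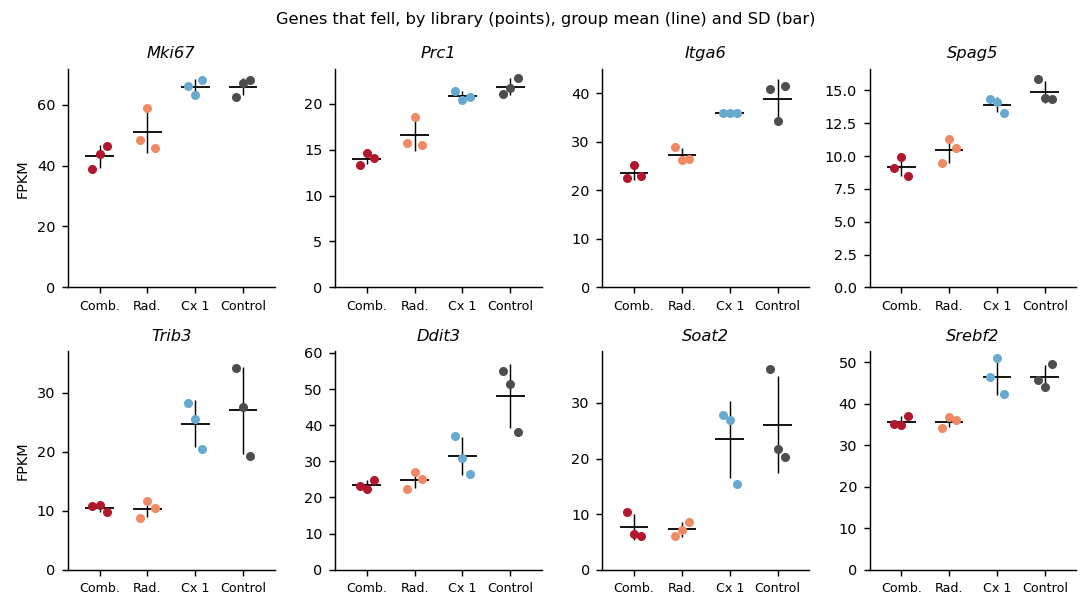
Levels in FPKM of 8 genes that fell in the combination against control, in each library (points) of the combination (Comb.), radiation (Rad.), Complex 1 (Cx 1) and control groups, with the mean (line) and SD (bar) of 3 libraries. Control libraries lie above all combination libraries in the 8 genes, for example Mki67 with 38.96 to 46.3 FPKM in the combination, against 62.7 to 68.0 FPKM in control.

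Other metabolic lists moved less. Of 26 hypoxia and glycolysis genes 8 fell and 2 rose. The count of falls was 4 without combination replicate 1 or control replicate 2 or 3, and 5 without combination replicate 2. Vegfa, the vascular growth factor gene, had 47.6, 43 and 51.96 FPKM in combination libraries, against 80.2, 82.7 and 60.4 FPKM in control libraries (log2 -0.70 ± 0.14, adjusted p = 0.00336), and Pgk1, a glycolytic gene with 54.7% of such sequences in another gene, fell by 0.60 on the log2 scale while Pfkfb3, which makes the activator of phosphofructokinase, rose by 1.11 ± 0.22. Of 30 ribosomal protein genes 13 fell and none rose, with a median of -0.28, and the count was 6 without combination replicate 3, 7 without control replicate 1 and 8 without control replicate 2. Of 28 nuclear genes of oxidative phosphorylation 1 fell, Ndufs1, and none rose. Of 13 mitochondrially encoded genes 5 rose and 1 fell. The rises were mt-Nd3, mt-Nd4l, mt-Co2, mt-Co3 and mt-Atp6. Of these, mt-Nd3, mt-Co2, mt-Co3 and mt-Atp6 share 98.1% to 100% of their 31-base sequences with another annotated gene, so their counts are uncertain. The count of rises was 3 without combination replicate 2 or control replicate 1 or 3. Hmox1, the heme oxygenase gene that oxidants and macrophage activation induce, had 101, 88.1 and 81.6 FPKM in combination libraries, against 43.1, 39.3 and 34.3 FPKM in control libraries (log2 1.17 ± 0.28, adjusted p = 0.0109), one of 3 rises and 2 falls among 19 tested NRF2 and glutathione genes. Of 8 tested metallothionein and platinum transport genes (14 listed), 1 rose, the copper transporter gene Slc31a2 (log2 0.76 ± 0.14, adjusted p = 0.00236), and none fell, and the metallothionein genes Mt1 (0.33 ± 0.21) and Mt2 (0.56 ± 0.25) did not pass.

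Few markers of stroma and vessels passed. Of 14 tested endothelial markers (19 listed) none passed in the edgeR fit described above or in DESeq2 and 1 had an unadjusted p under 0.05. Without the filter 1 was higher and 2 lower, and without control replicate 1 1 was higher. Their median was -0.06, but 0.29 without control replicate 1, 0.03 without combination replicate 3, and 0.03 and 0.04 in limma. Pecam1 had 5.57, 5.55 and 5.96 FPKM in combination libraries, against 6.26, 4.01 and 4.79 FPKM in control libraries (log2 0.14 ± 0.20, adjusted p = 0.675). Of 25 tested fibroblast and matrix genes (28 listed) 5 rose and 1 fell, a share near the background, and 3 rose without combination replicate 1. Dcn, the proteoglycan decorin, had 56.3, 62.5 and 64.5 FPKM in combination libraries, against 28.8, 31.1 and 25.5 FPKM in control libraries (log2 1.05 ± 0.13, adjusted p = 0.000204), and Acta2, the smooth muscle actin gene, had 3.62, 2.5 and 1.93 FPKM in combination libraries, against 4.08, 4.29 and 4.99 FPKM in control libraries (log2 -0.78 ± 0.23, adjusted p = 0.0286). The collagen genes Col1a1 (0.48 ± 0.23) and Col3a1 (0.45 ± 0.28) did not pass. None of 8 tested mast cell, basophil and eosinophil markers passed in that fit or in DESeq2, none had an unadjusted p under 0.05, and their median was 0.60. In other edgeR fits 5 were higher without the filter, 3 with only the 6 libraries fitted, 2 with the replicate number as a block and 1 without combination replicate 1. Of 4 tested skeletal muscle markers 1 rose, and of 4 tested adipocyte markers 1 fell.

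The rule for named genes also gave falls outside these lists or in short ones. Cdsn, the corneodesmosin gene of the skin barrier, had 2.47, 1.67 and 1.17 FPKM in combination libraries, against 12.98, 4.94 and 5.5 FPKM in control libraries (log2 -2.20 ± 0.38, adjusted p = 0.00156). Angptl6, an angiopoietin-like factor, had 2.99, 2.99 and 2.85 FPKM in combination libraries, against 18.97, 8.24 and 6.96 FPKM in control libraries (log2 -2.00 ± 0.36, adjusted p = 0.00194). Control replicate 1 was the highest library in both, and the other control libraries were still above all combination libraries. On the genome Angptl6 overlaps another tested gene, Shfl. The other members of the keratinocyte list that were tested, Lgals7 (log2 -0.63 ± 0.13, adjusted p = 0.00432) and Krt10 (log2 -0.97 ± 0.31, adjusted p = 0.0379), fell too. Krt10 missed the threshold under 7 of the 17 alternatives and was at -0.58 without control replicate 3. The other 16 of the 19 listed markers, Krt5 and Krt14 among them, were below the filter. Btc, the EGF family ligand betacellulin, had 6.38, 4.93 and 7.53 FPKM in combination libraries, against 20.4, 15.3 and 14.3 FPKM in control libraries (log2 -1.45 ± 0.22, adjusted p = 0.000746). Ceacam1, an adhesion receptor of epithelium and immune cells, with 37.5% of its 31-base sequences in another gene, had 5.92, 7.28 and 9.61 FPKM in combination libraries, against 20.3, 13.5 and 15.2 FPKM in control libraries (log2 -1.15 ± 0.20, adjusted p = 0.00139). Itga6 (ENSMUSG00000027111, chromosome 2, 71575960 to 71688760), the integrin alpha 6 gene, had 22.6, 25.3 and 22.98 FPKM in combination libraries, against 40.8, 34.2 and 41.5 FPKM in control libraries (log2 -0.76 ± 0.08, adjusted p = 8.79e-05). Tenm3 (ENSMUSG00000031561, chromosome 8, 48680717 to 49296986), a teneurin adhesion gene, had 7.56, 7.29 and 7.45 FPKM in combination libraries, against 14.5, 12.5 and 13.03 FPKM in control libraries (log2 -0.89 ± 0.08, adjusted p = 5.6e-05), which was the smallest p among the falls, and it was also 1 of the 5 genes lower than in radiation (log2 -0.43 ± 0.08, adjusted p = 0.0306). The other 4 were Mastl, the Greatwall kinase gene of mitosis, Zc2hc1a, Cplx2 and Tmem200a. No gene was lower than in radiation without combination replicate 1 or without radiation replicate 1. Of the tumour genes, Ly6a (log2 1.40 ± 0.40, adjusted p = 0.023), which interferon also induces and which shares 31.9% of its sequences, rose, and Myc (log2 -0.48 ± 0.10, adjusted p = 0.00592), Hmga2 (log2 -0.39 ± 0.12, adjusted p = 0.0296) and Krt18 (log2 -0.87 ± 0.27, adjusted p = 0.0383) fell. Krt18 missed the threshold under 8 of the 17 alternatives, Hmga2 under 6 and Ly6a under 4. The 3 falls of this list were 1 without combination replicate 2 or 3 or control replicate 1, and the rise was lost without combination replicate 1 or 2 or control replicate 1.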

How the data were processed

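Libraries were made from total RNA with a NEB Next Ultra kit, per the labels' protocols. STAR 2.5.3a, HTSeq 2.0.1, DESeq2 and the mm39 build are named in the submitters' processing notes, without their roles, and the strand setting is not given in the sources used here. The deposited table holds whole-number read counts for 55415 genes and FPKM values, which are those counts per kilobase and per mega count, recomputed here within 0.005 FPKM. The deposited counts were tested, and the FPKM values of the authors serve as levels. Samples were grouped by their labels.

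Genes with at least 1 FPKM in at least 3 of the 12 libraries (13668) were scaled by TMM and fitted in edgeR 4.0.16 (R 4.3.3) with a mean per group and the quasi-likelihood test, with Benjamini-Hochberg adjustment per comparison and a threshold of 0.05. Alternatives used DESeq2 1.42.0, limma 3.58.1 on log2(FPKM + 1) and log2(FPKM + 0.1), other scalings and filters, and fits without single libraries. The test was tried on simulated data first. Named genes were those with the largest changes or smallest p-values, the leading members of each of 49 gene lists, and a fixed set, and other members are given as values. The members, the lists and the motifs were chosen with earlier results of these data known, and the kappa B motif was added after the files were read. Overlap of a gene's 31-base sequences with other genes was taken from GENCODE M21 transcripts (GRCm38). Of 204 named genes, 36 overlap another tested gene, Ddit3, Cdkn1a, Prc1, Ercc1 and Angptl6 among them. Without a known strand setting, reads of such pairs cannot be told apart.

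Replicate numbers were not used to pair the libraries in the main fit. Same-numbered combination and control libraries had correlations of 0.14, 0.037 and 0.13 between their deviations from group means. Differently numbered ones had lower correlations, -0.14 to 0.005. For same-numbered combination and radiation libraries the correlations were -0.11, -0.048 and -0.20. For combination and Complex 1 libraries they were -0.0097, 0.030 and 0.017. Each library was counted as 1 replicate. Libraries of 1 group differed by more than sampling noise in every pair, which does not show that they come from different mice.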

Additional observations from a re-analysis of the deposited data

How the results depend on the processing

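No named gene past the threshold changed direction under the alternatives run. List medians that did were those of skeletal muscle markers (0.26, and -0.51 without combination replicate 2), endothelial markers (-0.06, up to 0.29 without control replicate 1) and lipid-associated macrophage genes (0.04, and -0.02 without combination replicate 1), and those of nucleotide excision repair, NRF2 and oxidative phosphorylation genes, near 0 throughout. Of 193 named genes that passed against control, 164 passed under all 17 alternatives and 29 missed the threshold under at least 1. Of the 1620 rises and 1372 falls, 967 and 629 were called whichever of the 6 libraries was left out. Rises numbered 1172 to 1497 and falls 904 to 1274 with 1 library left out. Falls numbered 888 with library totals alone and 825 and 820 with limma on log2(FPKM + 1) and log2(FPKM + 0.1). Those alternatives gave 1947, 1786 and 1784 rises. Against radiation, DESeq2 called 158 genes higher and 29 lower, and fitting without the filter on low values called 389 and 140. Limma called 2 and 3 lower. Leaving out 1 library gave 25 to 70 higher, the fewest without radiation replicate 1, and 0 to 6 lower. Against Complex 1, no filter gave 1246 higher. There the balance of 647 higher and 717 lower turned to 909 and 844 in DESeq2 and 782 and 621 with library totals alone. Leaving out 1 library gave 259 to 1033 higher and 323 to 851 lower, the fewest without Complex 1 replicate 2 and the most without Complex 1 replicate 3. The causes were not tested. With the replicate number as a block, 1671 genes rose and 1401 fell against control, 72 and 6 were higher and lower than radiation, and 744 and 774 than Complex 1. Whether equal numbers mark a pair is not in the labels. The filter left out low genes such as Ifnb1 and Foxp3, so the main fit, with 3 libraries a group, did not test them. In any list, low genes could pass it through the group where they were high, which favours differences among the tested members.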

Other observations

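Of the 84 genes higher in the combination than in radiation, 54 were protein coding and 30 were annotated as pseudogenes, which is 2.91% of 1030 tested pseudogenes and 0.484% of 11165 tested protein coding genes. Leaving out 1 library gave 6 to 22 such pseudogenes, the fewest without radiation replicate 1, and fitting only the groups compared gave 13. With the same test 6 pseudogenes were higher and 22 lower in the combination than in Complex 1, with 3 to 17 higher and 4 to 28 lower when 1 library was left out. The fewest higher were without combination replicate 3, and the fewest lower without Complex 1 replicate 2. Reads of pseudogenes can come from their parent genes, and this was not tested.

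Other lists between the combination and control are read beside the shares of all tested genes, of which 11.9% rose and 10% fell. Of 18 immediate early genes 2 rose and 3 fell, and 5 fell without control replicate 3. Of 5 tested pericyte and smooth muscle markers 1 fell, with a median log2 change of -0.50 that was -0.12 without control replicate 1. No pericyte marker passed without combination replicate 2 or 3 or control replicate 2. Of 4 tested erythroid markers none passed in the same edgeR fit or in DESeq2, with 1 lower at an unadjusted p under 0.05. Their median was -1.06, and -0.56 without control replicate 2. Without the filter on low values 3 were lower, and 1 with only the 6 libraries fitted. The 1 tested Schwann and nerve marker did not pass.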
